A study of Mus musculus with 5 samples.

Results

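The expression of 35 genes of ribosome biogenesis and the nucleolus was compared among 32D cells that carry 1 of 5 FLT3-ITD constructs. The 35 were chosen by name for their known roles, as factors of ribosome assembly, RNA polymerase I subunits and enzymes of nucleotide and polyamine synthesis, out of 18193 genes with a probe set on the array. That choice was made with earlier results of these data known. Where a gene had several probe sets, the one highest on average across the arrays stood for it. All 35 passed the filter on low values, which kept 9621 genes whose highest value was at least 2.75 on the log2 scale of the file.

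32D is a murine myeloid progenitor line that normally needs interleukin-3, and FLT3 is a growth factor receptor of early blood cells that an internal tandem duplication (ITD) makes active without its ligand. The cells had been stably transduced with retroviral constructs that the labels call FLT3 ITD613, ITD78, ITD602, ITD598 and ITD611, and the labels say neither what the numbers mean nor whether a line was a clone or a pool. Every line, without exception, was starved for 3 h and then given a tyrosine kinase inhibitor (TKI, not named) for 1 h, so all values below are from inhibited cells, and no array of untransduced or uninhibited cells was analysed here. There was 1 array per construct, hence no replicate, no test and no p-value: differences are given as sizes in log2 units, beside the same measure over all 9621 genes, and an SD is the spread over the other 4 constructs. ITD602 alone differs from the other 4 in a string within its title that looks like a date, so for ITD602 an effect of construct and one of run cannot be told apart.

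Ribosomes are built in the nucleolus, where RNA polymerase I transcribes the long precursor of the ribosomal RNAs. Small nucleolar ribonucleoproteins (snoRNPs) of the box C/D and box H/ACA kinds methylate and pseudouridylate that RNA, and a large set of assembly factors folds, cuts and packs it into the small and the large subunit. The process takes up much of the energy of a growing cell, it is adjusted to growth factor signals, and many of its genes are known targets of the transcription factor MYC, as are the polyamine enzyme Odc1 and the pyrimidine enzyme Cad.

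The ribosome biogenesis genes were lower on the ITD613 array, as a set and nearly one by one. Of the 35, 32 had their lowest value of the 5 arrays on ITD613, where 29.4% of all genes had theirs. All 35 lay below the mean of the other 4 arrays, as did 47.7% of all genes. The median difference of the 35 from that mean was -0.39 (1.31-fold lower), beside 0.01 over all genes, and it lay between -0.44 (without ITD78) and -0.38 (without ITD611) when 1 of the other arrays was left out. The sizes were modest: 10 of the 35 were at least 0.5 lower (1.41-fold), beside 9.51% of all genes, 1 was at least 2-fold lower, beside 2.35%, and 0 were at least 0.5 higher, beside 12.6%. With each array centred on its median over all genes, which was highest on ITD613 (5.65), 17 were at least 0.5 lower. No share of all genes was at hand for that setting. The other genes of the array were not still on ITD613 either: the middle 50% of all genes spanned -0.20 to 0.27 there, wider than on any other array, where the bounds lay between -0.14 and 0.19. In 12 of the 35 the step from ITD613 up to the next array was wider than the whole range of the other 4 arrays, which held for 10.6% of all genes. The 3 exceptions to the lowest position were Ddx21, Noc4l and Rrs1, for which ITD602 was lowest and ITD613 next. In bulk RNA such as this, fewer cells of a type and less RNA per cell cannot be told apart.

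**Figure D1:**
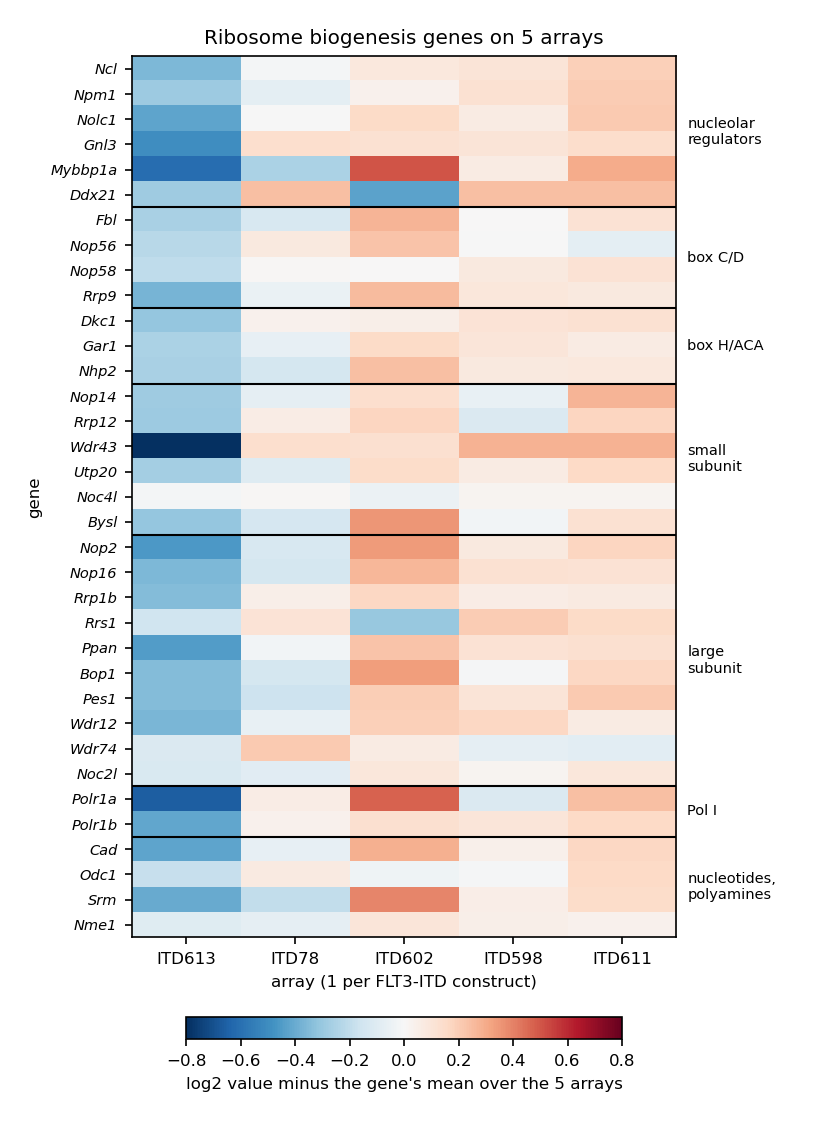
Heat map of the 35 genes (rows, grouped by role) on the 5 arrays (columns), coloured by the log2 value minus the gene's own mean over the 5 arrays, from blue (lower) to red (higher), with the colour full at 0.8. The ITD613 column is blue in nearly every row, with Wdr43, Polr1a and Mybbp1a darkest, while ITD602 holds the strongest reds and its clearest blue cells at Ddx21 and Rrs1.

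MYC with MAX binds the E-box CACGTG, a palindrome that reads alike on both strands, and this motif was searched in the promoters of the 35 genes because so many of the genes were low on the same array. RefSeq promoters of build GRCm38.p6, from 250 bases before to 50 bases after the start site, were at hand for 29 of the 35, and 6 of these (20.7%) held the motif. A gene was counted where any of its promoters held the motif. It was found in 22 of 114 (19.3%) of the other pathway genes and in 946 of 7890 (12.0%) of all genes past the filter. Over the whole table it was found in 2187 of 27025 genes (8.09%), or 2349 of 32851 single promoters (7.15%). The 6 genes were Wdr43, Mybbp1a, Nop2, Pes1, Utp20 and Nme1. Their differences on ITD613 were -1.02, -0.77, -0.57, -0.43, -0.34 and -0.12, and genes such as Gnl3 (-0.62) and Polr1a (-0.82) had none in this window. The motif began 60 bases before the start site in Nop2 and 18 before it in Nme1 (29 before a further Nme1 start site in the table), and 3, 18, 38 and 41 bases into the transcript in Pes1, Wdr43, Utp20 and Mybbp1a. Shown here, from 250 bases before to 30 bases after the start site and read towards the gene, are Wdr43 as the gene with the largest difference, Nop2 and Pes1 as factors of the large subunit, Nme1 as a gene with the motif and little difference, and Noc4l as the flat gene without it, with the E-box in capitals. A match is a description of the letters, and binding was not measured.
Wdr43 (GRCm38.p6, chr17:71615965-71616244, plus strand): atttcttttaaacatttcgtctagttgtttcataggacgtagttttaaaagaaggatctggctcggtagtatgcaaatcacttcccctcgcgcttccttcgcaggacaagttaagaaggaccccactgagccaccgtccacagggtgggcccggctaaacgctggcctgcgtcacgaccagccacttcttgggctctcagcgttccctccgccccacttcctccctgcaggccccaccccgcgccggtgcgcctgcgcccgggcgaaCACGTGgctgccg
Nop2 (GRCm38.p6, chr6:125131633-125131912, plus strand): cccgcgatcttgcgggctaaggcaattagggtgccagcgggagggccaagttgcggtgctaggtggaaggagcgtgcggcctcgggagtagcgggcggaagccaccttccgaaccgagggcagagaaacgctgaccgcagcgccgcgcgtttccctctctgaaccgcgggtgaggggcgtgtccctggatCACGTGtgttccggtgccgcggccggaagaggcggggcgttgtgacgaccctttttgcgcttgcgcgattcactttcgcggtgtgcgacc
Pes1 (GRCm38.p6, chr11:3963725-3964004, plus strand): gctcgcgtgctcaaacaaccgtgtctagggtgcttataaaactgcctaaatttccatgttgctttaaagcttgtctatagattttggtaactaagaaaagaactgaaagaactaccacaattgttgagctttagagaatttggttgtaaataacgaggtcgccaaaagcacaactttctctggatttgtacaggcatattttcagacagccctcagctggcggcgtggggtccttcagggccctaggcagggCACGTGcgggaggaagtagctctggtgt
Nme1 (GRCm38.p6, chr11:93968243-93968522, minus strand): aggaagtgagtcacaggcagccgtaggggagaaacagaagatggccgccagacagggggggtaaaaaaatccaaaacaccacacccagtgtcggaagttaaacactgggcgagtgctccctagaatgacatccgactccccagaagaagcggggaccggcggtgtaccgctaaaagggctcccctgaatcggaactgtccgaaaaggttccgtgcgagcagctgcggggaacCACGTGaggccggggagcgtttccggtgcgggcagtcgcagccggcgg
Noc4l (GRCm38.p6, chr5:110653353-110653632, minus strand): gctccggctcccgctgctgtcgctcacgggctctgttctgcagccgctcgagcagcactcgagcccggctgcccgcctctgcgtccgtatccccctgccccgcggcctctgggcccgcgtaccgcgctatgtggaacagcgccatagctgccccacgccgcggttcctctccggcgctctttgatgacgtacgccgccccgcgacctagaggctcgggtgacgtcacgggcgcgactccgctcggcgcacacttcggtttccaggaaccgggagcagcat

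Among the factors that build the small subunit, Wdr43, a component of the early processome on the ribosomal RNA precursor whose promoter holds the E-box, had the largest difference of all 35 genes on ITD613. Wdr43 read 7.44 (log2) on the ITD613 array, against 8.39 on ITD78, 8.38 on ITD602, 8.53 on ITD598 and 8.53 on ITD611. ITD613 alone was low, 0.94 below the nearest array, and the other 4 constructs spanned a narrow band (8.46 ± 0.09, SD, n = 4 arrays), which makes it the 1 gene at least 2-fold lower (difference -1.02). On a further Wdr43 probe set ITD613 was again lowest, with 6.53, but the others were spread more widely, with 7.32 on ITD78, 7.85 on ITD602, 7.65 on ITD598 and 7.87 on ITD611 (difference -1.14). Bysl, an assembly factor of the small subunit, read 6.65 on ITD613, against 6.83 on ITD78, 7.32 on ITD602, 6.94 on ITD598 and 7.08 on ITD611. Nop14, which works in the same particle, read 5.18 on ITD613, against 5.39, 5.60, 5.41 and 5.74 on ITD78, ITD602, ITD598 and ITD611. In both genes ITD613 was lowest with ITD78 next, and the steps were smaller than in Wdr43. Rrp12 and Utp20, large helical scaffold proteins of the same particles, ranged over 0.46 and 0.43 between arrays, also with ITD613 lowest. Noc4l, whose yeast counterpart is needed for small subunit export, was the flattest of the 35: it read 7.18 on ITD613, against 7.21 on ITD78, 7.15 on ITD602, 7.22 on ITD598 and 7.22 on ITD611, and its 4 probe sets differed by -0.02, -0.01, 0.04 and 0.06 on ITD613 from the mean of the other arrays.

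The 10 large subunit factors had a median difference of -0.44 on ITD613, and 9 of them were lowest there, beside 29.4% of all genes. Nop2, a methyltransferase of the large subunit RNA long known as a proliferation antigen, read 5.84 on the ITD613 array, against 6.17 on ITD78, 6.64 on ITD602, 6.38 on ITD598 and 6.47 on ITD611. Ppan, an assembly factor of the same subunit, read 6.73 on ITD613, against 7.15, 7.40, 7.29 and 7.31 on ITD78, ITD602, ITD598 and ITD611. Both were at least 0.5 below the mean of the other arrays, with ITD78 the second lowest and ITD602 the highest. Pes1, Bop1 and Wdr12 form the PeBoW complex, which is required for processing of the large subunit RNA. On the probe sets used the 3 differed by like amounts. Pes1 read 6.91 on ITD613, against 7.09 on ITD78, 7.45 on ITD602, 7.36 on ITD598 and 7.46 on ITD611. Bop1 read 5.84 on ITD613, against 6.04, 6.52, 6.18 and 6.35 on ITD78, ITD602, ITD598 and ITD611. Wdr12 read 7.17 on ITD613, against 7.47, 7.72, 7.70 and 7.59 on those arrays. Their differences on ITD613 were -0.43, -0.44 and -0.45, each with ITD78 next. Their other probe sets above the low range did not share this, with -0.01 for Pes1, -0.83 for Bop1 and 0.27 for Wdr12.

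Nop16, a nucleolar protein of the large subunit pathway, read 6.99 on the ITD613 array, against 7.21 on ITD78, 7.61 on ITD602, 7.47 on ITD598 and 7.46 on ITD611. Rrp1b, a nucleolar protein that also binds chromatin, read 7.58 on ITD613, against 7.98, 8.09, 7.99 and 8.0 on ITD78, ITD602, ITD598 and ITD611. On this Rrp1b probe set the other 4 constructs were close together (8.01 ± 0.05, SD, n = 4 arrays) and ITD613 stood 0.39 below the nearest. Rrs1, whose yeast counterpart helps bring the 5S RNA into the large subunit, read 8.79 on ITD613, against 9.07 on ITD78, 8.65 on ITD602, 9.16 on ITD598 and 9.11 on ITD611, so that here ITD602 was lowest. On the further Rrs1 probe set ITD613 was lowest again, with 8.19 against 8.40, 8.56, 8.52 and 8.49 on ITD78, ITD602, ITD598 and ITD611. Wdr74, a partner of the assembly ATPase Nvl, and Noc2l ranged over only 0.33 and 0.21, and Wdr74 was the 1 gene of the 35 higher on ITD78 than on every other array, beside 11.3% of all genes.

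The nucleolar scaffold and regulator genes had a median difference of -0.49 on ITD613. Mybbp1a, which represses and processes ribosomal RNA in the nucleolus, had one of the widest spreads: 8.10 on the ITD613 array, against 8.46 on ITD78, 9.22 on ITD602, 8.78 on ITD598 and 9.01 on ITD611. Its order of arrays, ITD613 then ITD78 at the bottom and ITD602 at the top, recurs in others of the genes, such as Nop2, Ppan and Srm. How often this order occurs over all genes was not counted. Gnl3 (nucleostemin), a GTP-binding nucleolar protein of stem and dividing cells, behaved more like Wdr43: it read 8.71 on ITD613, against 9.34 on ITD78, 9.32 on ITD602, 9.31 on ITD598 and 9.34 on ITD611, with an SD of only 0.02 over the other 4. Gnl3, Wdr43 and Polr1a were the 3 genes at least 0.5 below every other array on ITD613, beside 4.36% of all genes. Nolc1, a chaperone of snoRNPs, read 8.71 on ITD613, against 9.13, 9.28, 9.20 and 9.34 on ITD78, ITD602, ITD598 and ITD611. Ncl (nucleolin), among the most abundant nucleolar proteins, read 10.77 on ITD613, against 11.12, 11.22, 11.23 and 11.32 on the same arrays. Npm1 (nucleophosmin), a nucleolar chaperone whose gene is often mutated together with FLT3-ITD in human acute myeloid leukaemia, ranged over 0.49 with ITD613 lowest and ITD78 next. Ddx21, an RNA helicase, read 7.94 on ITD613, against 8.47 on ITD78, 7.80 on ITD602, 8.47 on ITD598 and 8.47 on ITD611. On its further probe set ITD602 was instead the highest, with 6.61, and ITD613 the lowest, with 5.97, against 6.13 on ITD78, 6.48 on ITD598 and 6.59 on ITD611. The low ITD602 value of Ddx21 thus rests on 1 probe set.

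The snoRNP genes were lower together and by little. The box C/D core genes Fbl (fibrillarin, the methyltransferase), Nop56 and Nop58, with Rrp9 of the U3 particle, had a median difference of -0.30 on ITD613, and the box H/ACA genes Dkc1 (dyskerin, the pseudouridine synthase), Gar1 and Nhp2 one of -0.33. All 7 were lowest on ITD613, beside 29.4% of all genes. Rrp9 read 4.87 on the ITD613 array, against 5.18 on ITD78, 5.48 on ITD602, 5.33 on ITD598 and 5.31 on ITD611. Fbl read 9.79 on ITD613, against 9.92, 10.32, 10.06 and 10.17 on ITD78, ITD602, ITD598 and ITD611. Nhp2 read 9.72 on ITD613, against 9.84, 10.22, 10.06 and 10.06 on the same arrays. These 3 had ITD78 second lowest and ITD602 highest, and the other 4 ranged over 0.32 (Nop58) to 0.45 (Nop56).

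Both subunit genes of RNA polymerase I in the list were low on ITD613. Polr1b, the second largest subunit, read 5.36 on the ITD613 array, against 5.82 on ITD78, 5.91 on ITD602, 5.88 on ITD598 and 5.94 on ITD611. Polr1a, the catalytic subunit, read 3.63 on ITD613, against 4.34, 4.76, 4.17 and 4.53 on ITD78, ITD602, ITD598 and ITD611, the widest range of the 35 (1.13). It is also the 1 gene of the 35 that reached below 3.74, where at least 100 probe sets can hold the very same value, so the size of its difference (-0.82) is uncertain. A further Polr1a probe set put ITD613 and ITD78 level, at 3.85 and 3.86, against 4.62 on ITD602, 4.34 on ITD598 and 4.41 on ITD611.

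Of the enzymes that supply nucleotides and polyamines, Srm and Cad followed the assembly factors on the probe sets used, whereas Nme1 and Odc1 differed less. Srm (spermidine synthase) read 8.24 on the ITD613 array, against 8.45 on ITD78, 9.03 on ITD602, 8.69 on ITD598 and 8.79 on ITD611. Cad, which starts pyrimidine synthesis, read 6.69 on ITD613, against 7.05, 7.40, 7.16 and 7.28 on ITD78, ITD602, ITD598 and ITD611. In both ITD613 was lowest and ITD602 highest, and Srm, at -0.50, sat at the limit of the 0.5 rule. A further Cad probe set differed by only -0.04 on ITD613, and there ITD598 was lowest, at 5.44 against 5.66 on ITD613. Nme1, a nucleoside diphosphate kinase, read 9.33 on ITD613, against 9.35, 9.52, 9.47 and 9.46 on the same arrays, a range of 0.20. Odc1 (ornithine decarboxylase) ranged over 0.35, with ITD613 lowest.

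**Figure D2:**
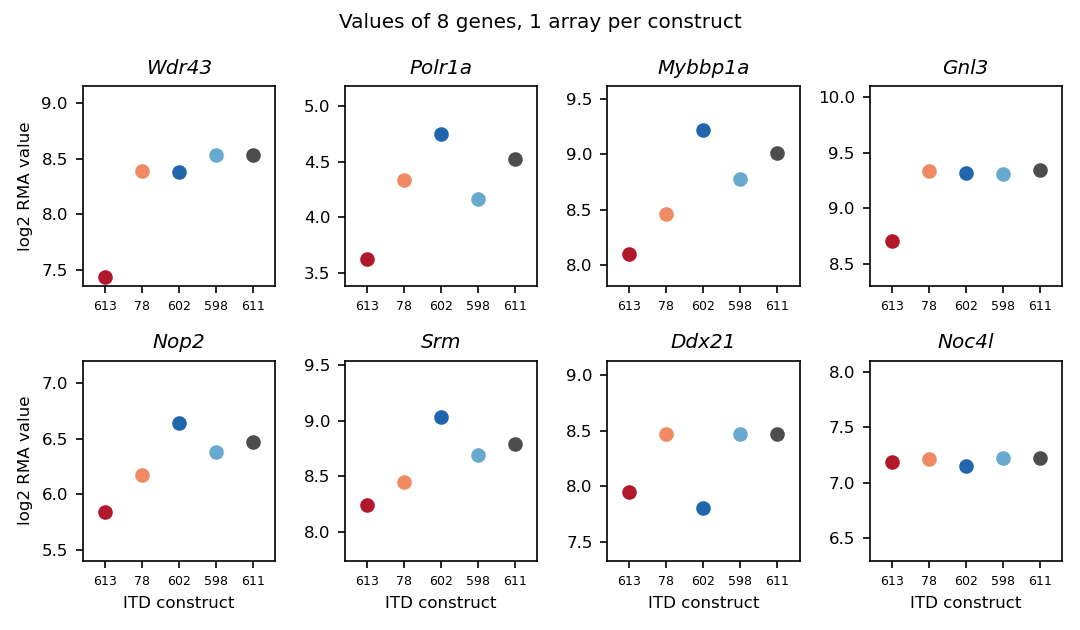
Values (log2, y axis, each panel spanning the same number of units) of 8 genes on the 5 arrays (x axis, labelled by construct number), 1 point per array. Wdr43 and Gnl3, on the probe sets used, are low on ITD613 alone, Mybbp1a, Nop2 and Srm also step up between ITD78 and ITD602, Ddx21 is lowest on ITD602, and Noc4l is flat between 7.15 and 7.22.

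The probe sets that were not used for the counts above gave a further reading of the same hybridisations. The 35 genes had 72 probe sets, and of the 37 not used 30 rose above the low range on some array. Of these 30, 25 were lower on ITD613 than the mean of the other arrays, 9 of them by at least 0.5, and 19 were lowest on ITD613, fewer than the 32 of 35 probe sets used. Over 5220 such probe sets of all genes, 52.3% were lower, 14.3% were lower by at least 0.5 and 34.7% were lowest on ITD613. The median difference of the 30 was -0.34. Some were lower by far more than the probe set used: Noc2l, whose yeast counterpart takes part in large subunit transport, differed by only -0.15 on the probe set used but read 4.84 on ITD613 on its other one, against 6.34 on ITD78, 6.44 on ITD602, 6.16 on ITD598 and 6.48 on ITD611. For Rrp1b the 2 other probe sets differed by -0.83 and -1.16, with the other 4 arrays wider apart (6.87 to 7.23 and 6.51 to 7.07), and for Bop1 the other one by -0.83. The 5 that went the other way belonged to Ncl (0.11), Nolc1 (0.35), Wdr12 (0.27) and Noc4l. Ncl and Nolc1 also had unused probe sets above the low range that were lower, at -0.74 and -0.78 for Ncl and -0.67 for Nolc1. Which transcripts or transcript ends these probe sets bind was not tested, so the sizes for these genes are uncertain.

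**Figure D3:**
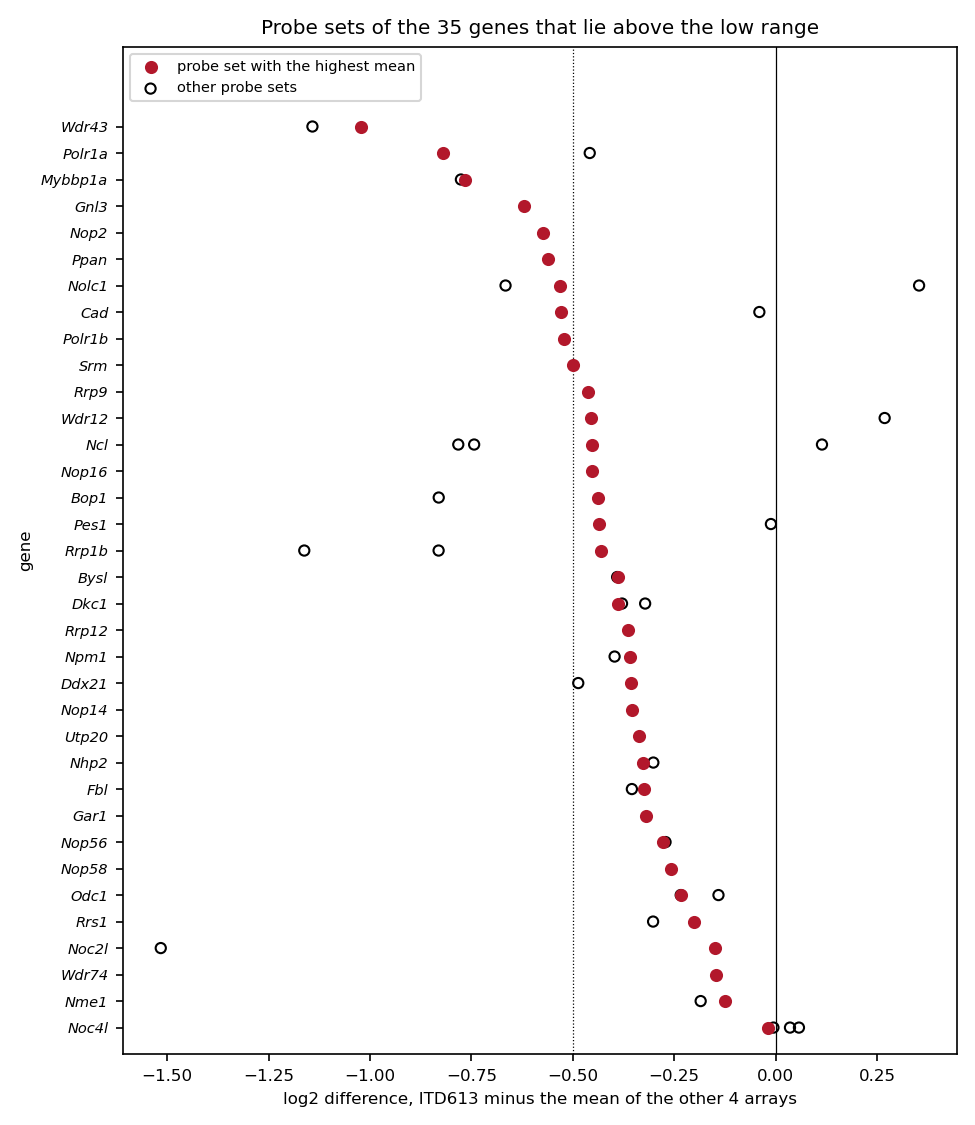
Log2 difference of ITD613 from the mean of the other 4 arrays (x axis) for each probe set above the low range, by gene (y axis, ordered by the filled points). Filled points are the probe sets with the highest mean, open points the others, the solid line marks 0 and the dotted line -0.5. Every filled point lies left of 0, most open points lie near their filled point, and Noc2l, Rrp1b, Ncl, Nolc1, Wdr12, Cad and Pes1 hold open points far from it.

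The other 4 constructs differed less among themselves, with ITD78 at the lower end and ITD602 or ITD611 at the upper. ITD78 was the lowest array for 0 of the 35, beside 17.5% of all genes, but the lowest or the second lowest for 24, which held for 43.2% of all genes. In the same 24 genes ITD613 was lowest and ITD78 next, an order seen in 16.6% of all genes. That share cannot exceed the 29.4% of all genes that were lowest on ITD613. In the 35 the lowest place was held by ITD613 or, in Ddx21, Noc4l and Rrs1, by ITD602. The 0 for ITD78 and this order therefore in part restate the ITD613 result. Counting only genes with no tie at the top, the highest value lay on ITD602 for 17 of the 35, beside 29.5% of all genes, on ITD611 for 11, beside 8.33%, and on ITD598 for 1 (Rrs1), beside 10.7%. On ITD613 it lay for 0, beside 35.7%. In the 5 genes left out, ITD611 shared the top value, with ITD602 in Rrp12 and Noc2l, with ITD598 in Wdr43 and Noc4l, and with ITD78 and ITD598 in Ddx21. At least 0.5 above the mean of the other arrays on ITD602 were 2 genes, Mybbp1a and Polr1a, beside 4.39% of all genes, and 1 was as far below, Ddx21, beside 4.06%. Leaving ITD613 out, the median range of the 35 over the other 4 arrays was 0.29, beside 0.28 over all genes.

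The median differences from the mean of the other 4 arrays were -0.066 on ITD78, 0.19 on ITD602, 0.085 on ITD598 and 0.19 on ITD611, beside -0.03, 0.03, -0.005 and -0.02 over all genes. These depend on which arrays they are set against. Without ITD613 they were -0.16 on ITD78, 0.11 on ITD602, -0.0074 on ITD598 and 0.075 on ITD611, and without ITD602 they were 0.0055 on ITD78, 0.16 on ITD598 and 0.24 on ITD611. Without ITD611 the ITD602 median was 0.27, that of ITD598 was 0.14 and that of ITD78 was -0.0027. Without ITD598 the ITD78 median was -0.024, and without ITD78 that of ITD598 was 0.06.

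**Figure D4:**
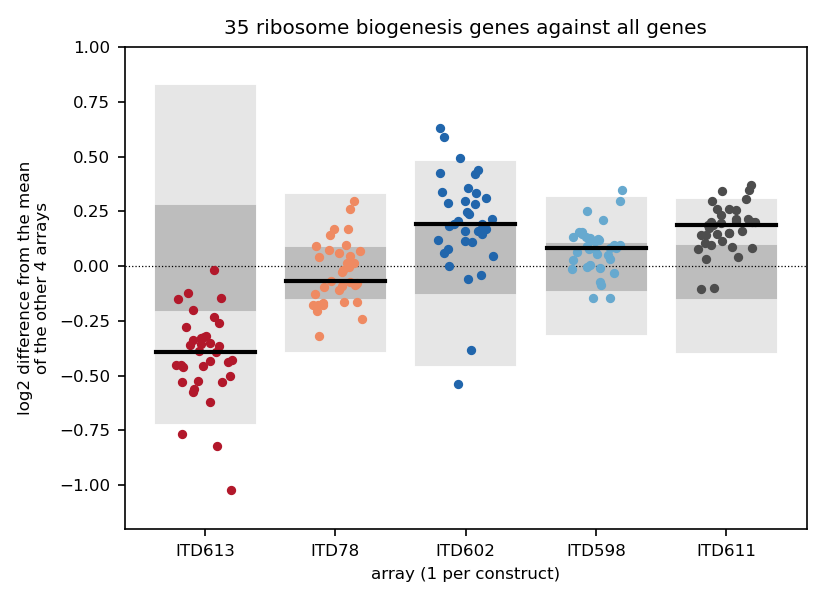
Log2 difference of each array from the mean of the other 4 (y axis) by array (x axis). Points are the 35 genes, black bars their medians, dark grey boxes the middle 50% of all 9621 genes and light grey boxes the span from the 5th to the 95th percentile. All points on ITD613 lie below 0 (median -0.39), and the medians on ITD602, ITD598 and ITD611 lie above it.

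Set against each other array directly, ITD613 was lower in all 35 genes against ITD78 (43.4% of all genes), ITD598 (46.3%) and ITD611 (44.5%) and in 32 against ITD602 (49.1%). The median difference of the 35 was -0.30 from ITD78, -0.51 from ITD602, -0.41 from ITD598 and -0.46 from ITD611, while that of all genes lay between 0.0 and 0.03. At least 0.5 lower on ITD613 were 4 genes against ITD78 (6.12% of all genes), 19 against ITD602 (14%), 9 against ITD598 (10.6%) and 15 against ITD611 (10.6%). ITD78 was lower than ITD602 in 27 genes (55.1% of all genes; median -0.18), than ITD598 in 28 (50.6%; median -0.11) and than ITD611 in 32 (47.9%; median -0.15). ITD602 was lower than ITD598 in 9 genes (38.6% of all genes; median 0.09) and than ITD611 in 15 (34.7%; median 0.06), and ITD598 was lower than ITD611 in 24 (40.6%; median -0.065). These pairs share arrays and are not independent of each other.

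Other genes of the same pathway, from lists chosen by role and holding none of the 35, showed the same direction on ITD613 with smaller sizes. These lists, like the 35 genes, were chosen with earlier results of these data known, so they are no independent check. Of 144 listed genes, 133 passed the filter, and 82 of these (61.7%) had their lowest value on ITD613, beside 29.4% of all genes, 25 (18.8%) were at least 0.5 lower, beside 9.51%, and 0 were at least 0.5 higher. On ITD602, 61 (45.9%) had their highest value, beside 29.5% of all genes. The 39 other small subunit genes had a median difference of -0.32, with 28 lowest on ITD613, and the 39 other large subunit genes one of -0.33, with 25 lowest there. Bms1, a GTPase of the small subunit processome, read 9.0 on ITD613, against 9.46, 9.92, 9.73 and 9.88 on ITD78, ITD602, ITD598 and ITD611. Riok2, a late maturation kinase of the small subunit, read 4.64 on ITD613, against 5.33, 5.64, 5.64 and 5.68 on the same arrays, and Pno1, another late factor of that subunit, differed by -0.71. Among large subunit factors, Lyar, a nucleolar protein of dividing cells, read 8.37 on ITD613, against 8.71, 9.17, 8.98 and 9.09, and Rbm28 and Nle1, with yeast counterparts in large subunit assembly, both differed by -0.69. In the named genes of both subunit lists ITD613 was thus again lowest, with ITD78 next. The other arrays were spread as well, in Lyar from 8.71 on ITD78 to 9.17 on ITD602, so the low ITD613 value made up only part of these ranges.

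The 9 other snoRNP assembly genes had a median of -0.34 on ITD613, with 6 (66.7%) lowest there, beside 29.4% of all genes. Nufip1, an assembly factor of box C/D particles, read 5.64 on ITD613, against 6.35 on ITD78, 6.58 on ITD602, 6.60 on ITD598 and 6.56 on ITD611. The ATPase genes Ruvbl1 and Ruvbl2 differed by -0.47 and -0.34. The 10 other genes of the RNA polymerase I machinery were mixed, with a median of -0.08 and 4 (40%) lowest on ITD613, among them Rrn3, the factor that links growth signals to the polymerase, at 5.45 on ITD613, against 5.65, 5.97, 5.93 and 5.83 on ITD78, ITD602, ITD598 and ITD611. Polr1e, a polymerase subunit, and Taf1d, of its promoter factor SL1, differed by -0.49 and -0.51. The 13 RNA exosome genes had a median of -0.09, with 5 (38.5%) lowest, not far from the share of all genes. Dis3, its nuclease, had the widest range, with 6.86 on ITD613, against 7.53, 7.90, 7.76 and 7.98, followed by Mphosph6 (difference -0.64) and Exosc4 (-0.32). Nucleotide synthesis genes (16; median -0.20, 10 lowest on ITD613) included Gart and Uck2 at -0.45 and -0.44, and Tyms (thymidylate synthase) at 0.18. The 7 other polyamine and hypusine genes had a median of -0.16, with Dhps at -0.53, Oaz2 at -0.19 and the catabolic gene Sat1 at 0.13.

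Myc itself did not share the direction of the 35 genes. The Myc probe set read 8.34 on the ITD613 array, against 7.47 on ITD78, 7.37 on ITD602, 7.41 on ITD598 and 7.44 on ITD611. ITD613 was thus the high array for Myc, by 0.87 over the nearest, and the other 4 were close together. The 9 genes of the MYC and MAX network had a median difference of 0.52 on ITD613, and 6 were at least 0.5 higher there, beside 12.6% of all genes. Other than Myc these were Mxi1 (0.57), Mlx (0.54), Mxd1 (0.52), Mxd3 (0.52) and Max (0.50), all close to the 0.5 limit, and Mxd1 lay in the low range on all 5 arrays. Mxi1, a MYC antagonist that pairs with MAX, read 7.35 on ITD613, against 7.12, 6.71, 6.71 and 6.59 on ITD78, ITD602, ITD598 and ITD611. The 2 Mycn probe sets above the low range did not follow one another: one read 11.51 on ITD613, against 10.75, 11.56, 11.83 and 11.50, the other 6.48, against 5.55, 5.23, 4.38 and 5.22. These are levels of mRNA, and protein was not measured.

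The genes for the proteins of the ribosome itself differed little. The 43 cytoplasmic ribosomal protein genes past the filter had a median difference of 0.0049 on ITD613, and 13 (30.2%) were lowest there, close to the 29.4% of all genes. By their medians, 11.83 to 11.88 on the 5 arrays, these genes lay near the top of the scale, though not each of them did. Their widest ranges were those of Rpl37 (difference -0.97), Rps27 (-0.76) and Rps25 (-0.55), genes with many near-identical copies in the genome, which these probe sets may also bind. The 19 cytoplasmic aminoacyl-tRNA synthetase genes, which charge tRNAs with amino acids, had a median of -0.22, and 14 (73.7%) were lowest on ITD613, with Gars at -0.67, Tars at -0.57 and Yars at -0.42. No difference between these lists and the 35 genes was tested.

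**Figure D5:**
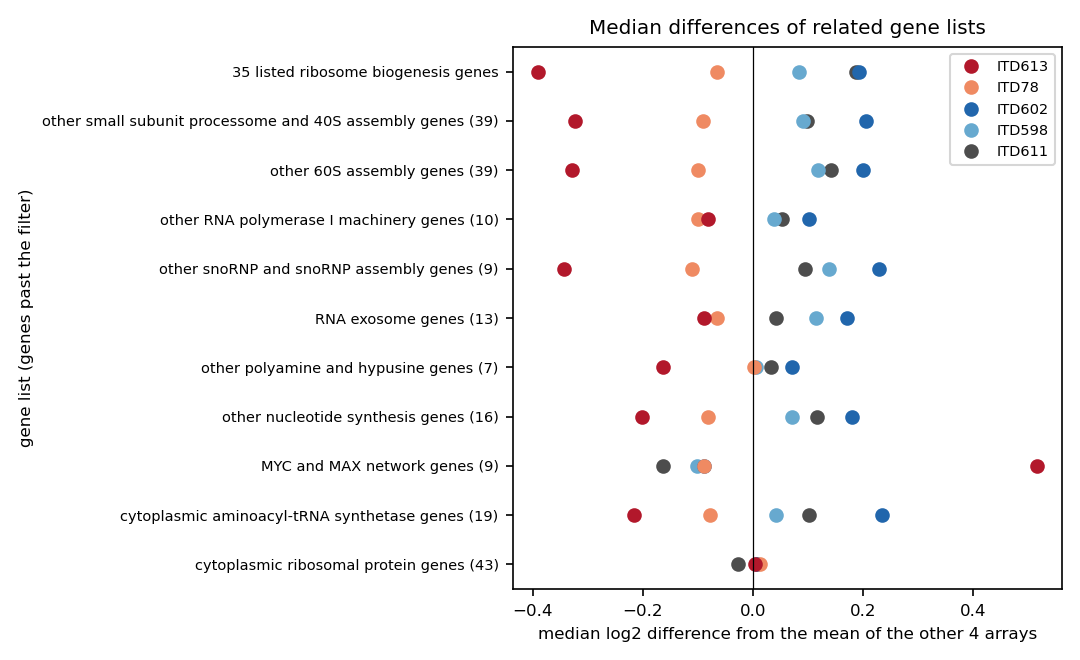
Median log2 difference from the mean of the other 4 arrays (x axis) for the 35 genes and 10 related lists (y axis, genes past the filter in brackets), with 1 point per array. ITD613 is leftmost for the 35 genes (-0.39) and for most assembly lists, rightmost for the MYC and MAX network genes (0.52), and near 0 with the other arrays for the ribosomal protein genes.

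The state of the arrays and cells was checked beside these results. The 3' probe set of beta-actin exceeded its 5' one by 1.41 on ITD613, 1.20 on ITD78, 1.19 on ITD602, 1.25 on ITD598 and 1.56 on ITD611, and for Gapdh the values were 0.56, 0.34, 0.30, 0.31 and 0.59. The excess was thus largest on ITD611 and ITD613 and smallest on ITD602, and its part in the result was not tested. Of 12 myeloid progenitor markers 8 passed the filter, and Elane, Kit, Cd34 and Itgam did not. The log2 of their summed level was 10.47 on ITD613 and 10.43 on ITD78, against 11.14 on ITD602, 10.99 on ITD598 and 10.99 on ITD611, a sum in which Myb weighs most on ITD613. Over the 8 the median difference was -1.01 on ITD613 and -0.63 on ITD78, against 0.72 on ITD602, 0.40 on ITD598 and 0.30 on ITD611, and 5 of the 8 (Ctsg, Prtn3, Csf2rb, Spi1 and Ptprc) were lowest on ITD613. Ctsg, a granule protease, read 6.24 on ITD613, against 7.42, 9.17, 9.09 and 8.77 on ITD78, ITD602, ITD598 and ITD611. Myb, a transcription factor of progenitors, went the other way, with 9.90 on ITD613, against 9.34, 9.09, 8.91 and 9.09 on those arrays, and Il3ra differed by 0.09. The median of the markers thus lay further below 0 than that of the 35 genes on ITD613, and their part in the result was not tested either. Proliferation markers were at hand for 6 genes, 4 higher on ITD613 (Mki67 by 0.64, Top2a by 0.57, Ccna2 and Pcna by 0.25) and 2 lower (Mcm2 by -0.26, Mcm5 by -0.11). Of the T cell, B cell and fibroblast markers with a probe set, all but Cd4, at 3.24 to 3.36, stayed under the filter on all 5 arrays.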

How the data were processed

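Total RNA of 5 lines of 32D cells was hybridised to Affymetrix mouse expression arrays, 1 array per construct. The authors deposited log2 values per probe set, and the submitters' processing notes name RMA, which corrects background, normalizes across arrays and summarises probes. Its version, software and chip definition are not given in the sources used here. That the base is 2 was read from the values, which reach 13.45, more than a natural log of scanner output could (11.09). Array medians ran from 1.99 to 2.06, and 0 columns were without a sample. Of 45101 probe sets, 64 were controls, 34945 had a symbol of 1 gene, 932 of several and 9160 of none. Gene IDs of 34741 matched RefSeq (GRCm38.p6), and 0 were renamed. The filter value is the 60th percentile of all values (2.75). On each array 23.7% to 30.3% of probe sets had a value shared by at least 100, up to 3.74, here the low range. With 1 array per construct nothing was tested. The code that makes the counts was checked on simulated data with known shifts and independent noise. That check bears on the counting only, not on array to array error in these data. Every array's value is given for genes ranging over at least 0.5 and for the 2 flattest, and related lists are shown by up to 3 genes of widest range, with Myc always named; genes beyond that were chosen after their values were seen. The 35 genes and all lists were chosen with earlier results of these data known. Python 3.11.15, pandas 2.3.3 and numpy 2.4.6 were used.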

Additional observations from a re-analysis of the deposited data

How the results depend on the processing

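Under the 12 alternatives the median difference of the 35 genes on ITD613 stayed between -0.46 and -0.36. The number of genes lowest on ITD613 stayed between 31 and 35 under the 11 for which it was counted. Both sets include dropping the low-value filter, making it stricter and raising low values to the filter value. These settings could not change any result for the 35 genes, so they are no check of it. All 35 passed the stricter filter too, and every value used for them lay above the filter value. The number at least 0.5 lower on ITD613 was 10. It was 17 with each array centred on its median over all genes, for which no share of all genes was at hand. In the other alternatives it was 8 to 15, the 15 without ITD78. The ITD611 median of 0.19 fell to 0.075 without ITD613 and lay between 0.15 and 0.24 in the other alternatives; leaving out 1 array at a time it ran from 0.075 to 0.24. No alternative moved the ITD78, ITD602 or ITD598 median by 0.1 or more, though that of ITD78 changed sign without ITD602 and that of ITD598 without ITD613. Means over all probe sets, and leaving out probe sets ending in _x_at or _s_at, left 34 of the 35 genes. No paired analysis was possible because each construct had 1 array and the labels give no replicate numbers. The number of arrays limits the precision: without replicates, small differences cannot be set against array to array error.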

Other observations

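The array also carries 3 control probe sets for 18S ribosomal RNA, a product of the pathway described here. The 5' one read 9.85 on ITD613, against 9.88 on ITD78, 9.79 on ITD602, 9.73 on ITD598 and 10.90 on ITD611. The middle one read 7.71 on ITD613, against 6.89, 7.16, 6.96 and 8.20 on those arrays, and the 3' one 7.99, against 7.91, 8.06, 7.91 and 8.49. ITD611 was the high array on all 3. Labelling by the 3' kit starts at poly(A) tails, so these values are not the cell's content of ribosomal RNA. The bioB hybridisation control averaged 5.96 on ITD602, against 2.53 on ITD613, 2.42 on ITD78, 2.23 on ITD598 and 2.82 on ITD611. The other controls differed less between arrays. BioC ran from 6.52 on ITD598 to 7.11 on ITD602, and bioD from 8.70 on ITD602 to 9.02 on ITD613. Cre ran from 11.04 on ITD598 to 11.38 on ITD611.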
